A study of Mus musculus with 6 samples.

Results

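The hepatic steroid-converting enzymes described here were 10 genes of the 55487 genes of the deposited tables, matched by Ensembl gene ID to the symbols Hsd3b5, Hsd3b2, Hsd3b3, Hsd11b1, Srd5a1, Akr1c6, Hsd17b2, Hsd17b6, Hsd17b13 and Cyp17a1. All 10 passed the filter on low counts, as did 13498 genes in all. The libraries held poly(A) RNA of frozen liver, 20 mg per animal, from 8-week-old males fed standard chow, with 3 animals in each group. The SCADD animals belonged to the inbred substrain BALB_cBYJ and are deficient in the product of Acads, a mitochondrial acyl-CoA dehydrogenase for fatty acids with short chains. The WT animals belonged to the substrain BALB_cJ. No allele other than the SCADD genotype is named in the labels, and genotype and substrain coincide in every animal, so their parts in any difference cannot be told apart.

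The liver both inactivates circulating steroids and reactivates some of them. Hydroxysteroid dehydrogenases interconvert hydroxyl and ketone groups on the steroid ring, 5-alpha-reductase and aldo-keto reductases saturate double bonds and reduce ketones, and the cofactor available in each compartment sets the direction. Several of these genes are known in rodents for different levels in male and female liver, a difference set largely by the pattern of growth hormone pulses acting through STAT5b.

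A single member, Hsd3b5, passed edgeR's test for a difference between the groups. Its product is a mouse liver enzyme that uses NADPH to reduce 3-ketosteroids such as dihydrotestosterone. Hsd3b5 RNA was 5.93-fold lower in SCADD than in WT livers. The other 9 members did not pass the test. In edgeR's quasi-likelihood test, with Benjamini-Hochberg adjustment over all tested genes and a threshold of 0.05, 1 of the 10 members was called, against 7.02% of all tested genes called in either direction 2.8% called lower and 4.22% called higher. None was called higher by edgeR. Of the 10, 5 had an unadjusted p under 0.05, all of them lower in SCADD. The share of all tested genes under that unadjusted threshold was not computed. These 5, and later counts at that threshold, therefore cannot be read against it. DESeq2 and limma-voom called 2 and 1 members, all lower. Of 13498 tested genes these tools called 1290 and 922, with 545 and 364 of them lower. Of the 10 log2 fold changes, 7 were below zero, with a median of -0.38 over the members and -0.00078 over all tested genes. Levels given as CPM are read counts scaled to a common library size, with TMM factors between libraries. In whole tissue, fewer cells of a type and less RNA per cell cannot be told apart.

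Gene totals were 16948986 to 23912744 reads in SCADD and 23991104 to 27148756 reads in WT libraries, and the share of unmapped reads was 25.1% to 36.6% in SCADD and 13.6% to 16.4% in WT libraries. The shares did not overlap between the groups, and their part in the results was not tested. Acads, the gene of the deficiency, was at 97.0 to 104 CPM in SCADD and 166 to 196 CPM in WT livers (log2 fold change -0.86, SE 0.13, adjusted p = 0.00407, edgeR). The 6 hepatocyte markers summed to 92429 to 133559 CPM in SCADD and 101245 to 151609 CPM in WT livers, and none was called by edgeR, with 1 at an unadjusted p under 0.05. Markers of adrenal and testicular steroid-producing cells summed to 0.869 to 1.18 CPM in SCADD and 0.788 to 1.18 CPM in WT livers. Of those 9 markers, 4 were at 0 in every library, Cyp11a1, Cyp11b1, Cyp11b2 and Nr5a1. Sinusoidal endothelial markers summed to 86.9 to 143 CPM in SCADD and 154 to 157 CPM in WT livers. Of these 5, 1 (Lyve1) was called lower by edgeR and 3 had an unadjusted p under 0.05, all lower. Clec4g made up most of that sum, at 53.8, 65.6 and 104 CPM in SCADD and 117, 112 and 115 CPM in WT livers. Clec4g, Lyve1 and Pecam1 were lower in SCADD without overlap. Oit3 overlapped between the groups, as did Stab2, whose log2 fold change was above zero (0.28, SE 0.16). Cholangiocyte markers summed to 28.8 to 41.1 CPM in SCADD and 44.7 to 52.1 CPM in WT livers, with none of the 3 tested called by edgeR and 2 at an unadjusted p under 0.05. Spp1 made up most of that sum, at 31.5, 27.8 and 39.5 CPM in SCADD and 44.7, 48.1 and 42.0 CPM in WT livers. Neither the endothelial nor the cholangiocyte sum overlapped between the groups. The sums of Kupffer cell, stellate cell and other blood cell markers did overlap, and none of their tested markers was called by edgeR. The part of any of these cells in the member results was not tested.

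The 3 members of the Hsd3b family lie side by side on the minus strand of chromosome 3 (GRCm38), Hsd3b5 at chr3:98618634-98630252, Hsd3b2 at chr3:98709255-98724543 and Hsd3b3 at chr3:98741523-98763127. Their coding sequences all had 1122 bases, including the stop codon, and encode 373 residues each. Their first 90 coding bases, written 5′ to 3′ from the GENCODE M21 transcripts, are shown because reads must be told apart by such differences for the members to be counted separately. Capitals in Hsd3b3 and Hsd3b2 mark bases that differ from Hsd3b5, 14 in each.
Hsd3b5: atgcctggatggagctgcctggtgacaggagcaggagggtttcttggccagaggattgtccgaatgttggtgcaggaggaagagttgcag
Hsd3b3: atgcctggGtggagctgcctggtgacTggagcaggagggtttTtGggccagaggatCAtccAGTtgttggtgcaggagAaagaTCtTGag
Hsd3b2: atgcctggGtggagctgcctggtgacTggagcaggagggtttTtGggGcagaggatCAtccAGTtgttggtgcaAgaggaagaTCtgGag

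Over the whole coding sequence Hsd3b5 was 79.6% identical to Hsd3b3 and 80.5% identical to Hsd3b2, whereas Hsd3b3 and Hsd3b2 were 95.1% identical. No stretch of 50 coding bases of Hsd3b5 occurred in Hsd3b2 or Hsd3b3. Hsd3b2 and Hsd3b3 shared 33.6% of their 50-base stretches with each other, so such a read can belong to either. The gene most like Hsd3b5 was another neighbour, Hsd3b4, with 95.2% identity, and Gm10681 has the same coding bases as Hsd3b4. Reads within these coding bases therefore cannot tell Hsd3b4 from Gm10681, and the untranslated bases were not compared. Of the Hsd3b5 stretches, 26.2% recurred in some paralogue.

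Hsd3b5 had 55.3, 39.7 and 39.3 CPM in SCADD replicates 1, 2 and 3 and 262, 178 and 356 CPM in WT replicates 1, 2 and 3. The groups did not overlap, and the lowest WT liver stood above the highest SCADD liver. The log2 fold change was -2.57 (SE 0.25, adjusted p = 0.000317, edgeR). RSEM's expected counts, in which reads shared by paralogues are divided among them, gave -2.58 (SE 0.26, adjusted p = 0.000424, edgeR on rounded counts), in a fit that called 6.91% of its tested genes. Across 16 alternative settings the log2 fold change of Hsd3b5 lay between -2.79 and -2.30, and the highest adjusted p, without SCADD replicate 3, was 0.0128 (edgeR).

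Hsd3b3, which in mouse liver and kidney converts delta-5 into delta-4 steroids, had 174, 182 and 137 CPM in SCADD livers and 184, 225 and 283 CPM in WT livers. Every SCADD value was below every WT value, by a narrow gap. Its log2 fold change was -0.49 (SE 0.19) and did not pass the test (adjusted p = 0.147, edgeR). Hsd3b2, a close paralogue of the same enzyme class, had 35.6, 40.4 and 21.7 CPM in SCADD livers and 25.6, 38.7 and 30.9 CPM in WT livers. Its groups overlapped (log2 fold change 0.04, SE 0.23, adjusted p = 0.949, edgeR). An antisense neighbour, Zfp697, covers 4.39% of the exonic bases of Hsd3b3 and 2.68% of those of Hsd3b2. The counts used were those of the strand on which 96.8% to 97.3% of stranded reads fell.

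Levels set per length, as TPM (RSEM's transcript abundance, with a fixed total per library), show how the family was composed. The summed level of the Hsd3b genes of this cluster was 206, 216 and 116 TPM in SCADD livers and 364, 323 and 472 TPM in WT livers. Hsd3b5 made up 18.5%, 13.7% and 17.1% of that sum in SCADD livers and 51.7%, 36.9% and 48.8% in WT livers. It was level with Hsd3b3 in WT livers and a distant second to Hsd3b3 in SCADD livers.

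Hsd3b3 made up 74.1%, 77.7% and 77.2% of the sum in SCADD livers and 44.9%, 57.8% and 48.3% in WT livers. Hsd3b2 made up 7.32%, 8.62% and 5.59% in SCADD livers and 3.25%, 5.15% and 2.79% in WT livers. In an exact two-sided permutation test over the libraries the summed level and each of the 3 shares gave p = 0.1, the smallest that 3 animals against 3 allow. Because shares add up to a whole, a lower share of Hsd3b5 raises those of the other genes. Without Hsd3b5 the remaining genes summed to 168, 187 and 96.5 TPM in SCADD livers and 176, 204 and 241 TPM in WT livers, and these ranges overlapped (exact permutation p = 0.2).

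**Figure D1:**
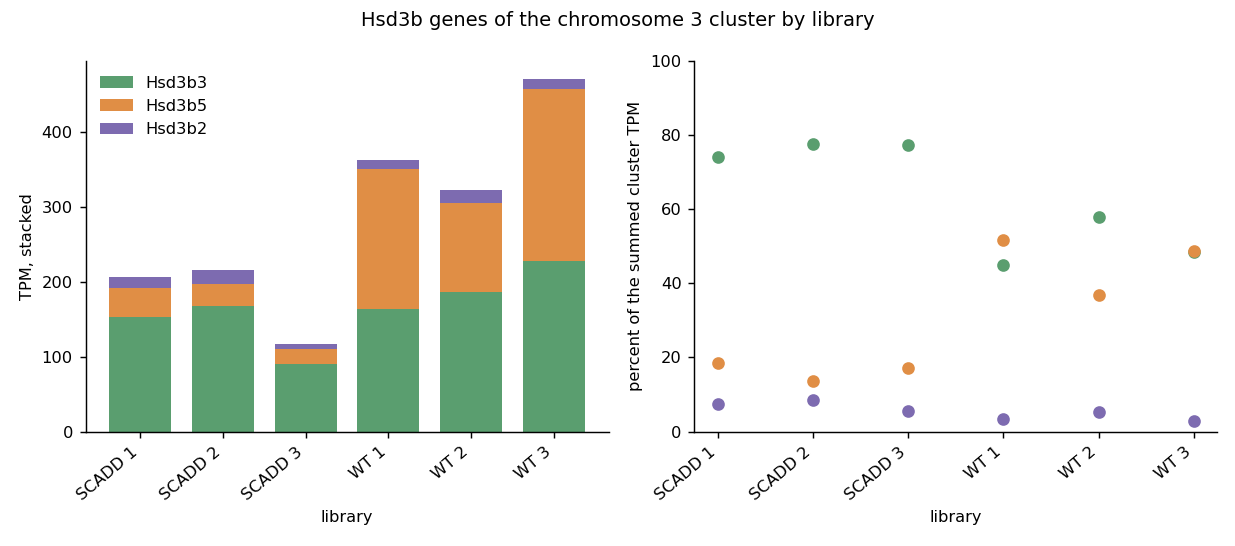
Left, TPM of Hsd3b3, Hsd3b5 and Hsd3b2 stacked for each library, SCADD then WT; right, the percent of the summed cluster TPM held by each gene in each library. The Hsd3b5 segment makes up 13.7% to 18.5% of the sum in SCADD livers and 36.9% to 51.7% in WT livers, while Hsd3b3 has the largest share in all SCADD livers.

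The remaining Hsd3b genes of the cluster were hardly detected in liver. Over the 3 SCADD and the 3 WT libraries, Hsd3b1, the gonadal and adrenal form in mice, had 1 and 1 unique counts, and Hsd3b6 was at 0 in every library. A total of 3 counts, the limit that a count of 0 allows for counting error only, corresponded to 0.122 to 0.186 CPM in single SCADD libraries and 0.109 to 0.131 CPM in single WT libraries. For Hsd3b4 and Gm10681, all of whose 50-base coding stretches recur in a paralogue, unique counts over the coding bases set no such limit. RSEM, which divides shared reads, placed Hsd3b4 at 3 expected counts over the SCADD group and 11 over the WT group, and Gm10681 at 3 over the SCADD group and 26 over the WT group. Gm4450, with 87.9% of its stretches in a paralogue, was at 0 expected counts over the SCADD group and 5 over the WT group. None of these 3 exceeded 0.43 TPM in any library. Hsd3b7, which lies elsewhere in the genome and acts on 7-alpha-hydroxycholesterol in bile acid synthesis, shares 62% of its exonic bases with Gm49388 on the same strand. Its unique counts are therefore uncertain, and its RSEM level of 345, 346 and 287 TPM in SCADD livers and 501, 469 and 427 TPM in WT livers is given in their place. The groups did not overlap there, but the difference did not pass the test (log2 fold change -0.43, SE 0.15, adjusted p = 0.130, edgeR on rounded RSEM counts). Of 4 tested Hsd3b genes, Hsd3b5 was the single call.

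The promoters of Hsd3b5 and Hsd3b3 were compared because these neighbours had such different fold changes. Over the region that aligned, given 5′ to 3′ on the minus strand from RefSeq (GRCm38.p6), 75.9% of 199 aligned bases were identical. The Hsd3b5 stretch, chr3:98645583-98645784, runs from base -250 to -49 relative to the RefSeq start and the Hsd3b3 stretch, chr3:98763129-98763327, from base -199 to -1. Capitals mark bases that differ or have no partner.
Hsd3b5: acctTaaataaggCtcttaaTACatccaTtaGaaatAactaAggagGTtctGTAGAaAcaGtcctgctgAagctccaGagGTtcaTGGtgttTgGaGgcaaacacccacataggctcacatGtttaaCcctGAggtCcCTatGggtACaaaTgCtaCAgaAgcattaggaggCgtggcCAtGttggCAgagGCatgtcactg
Hsd3b3: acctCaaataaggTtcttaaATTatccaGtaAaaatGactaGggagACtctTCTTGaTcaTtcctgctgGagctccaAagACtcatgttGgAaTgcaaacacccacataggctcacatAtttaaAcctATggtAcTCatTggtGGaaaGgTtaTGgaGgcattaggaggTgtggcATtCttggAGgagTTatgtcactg

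The RefSeq start of Hsd3b5 lies 15282 bases from the GENCODE start of the gene. The Hsd3b5 stretch ends at base -49 from the RefSeq start and lies farther upstream of the GENCODE one. The Hsd3b3 stretch ends at base -1, so the aligned stretches do not lie at the same distance from their RefSeq starts. Hsd3b2's window aligned with that of Hsd3b5 over 31 bases (74.2% identity). RefSeq promoter windows were found for 8 of the 10 members, 10 windows in all, with no entry for Hsd17b2 and Cyp17a1. The RefSeq start of Hsd11b1, like that of Hsd3b5, lies far from the GENCODE start of its gene, by 21715 bases. In the 250 bases before each RefSeq start, both strands were searched for 4 motifs. TTCNNNGAA, the palindrome bound by STAT factors, was in none of the 10 windows and in 7.02% of 32851 RefSeq promoters. The full palindrome of the glucocorticoid receptor element was in none of the 10 windows and in 0.387% of promoters. TATAAA was in the Akr1c6 window and in 12.4% of promoters, and AGGTCA, a nuclear receptor half-site, was in the Hsd17b13 window and in 14% of promoters. A missing match says only that these letters are not in these windows.

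The next members reactivate glucocorticoids or reduce androgens and related steroids. Hsd11b1, which regenerates active corticosterone in the endoplasmic reticulum, had 1441, 1626 and 1644 CPM in SCADD livers and 1846, 2132 and 2198 CPM in WT livers. All 3 SCADD livers lay below all 3 WT livers, with little spread within either group. The log2 fold change of -0.39 (SE 0.17) did not pass the test (adjusted p = 0.195, edgeR). Srd5a1, the liver 5-alpha-reductase that acts on testosterone, progesterone and corticosterone, had 50.5, 42.8 and 50.3 CPM in SCADD livers and 59.6, 46.0 and 79.7 CPM in WT livers. The WT livers varied more, and the lowest of them fell within the SCADD range (log2 fold change -0.37, SE 0.19, adjusted p = 0.279, edgeR). A sense transcript, Gm17108, covers 16.4% of the exonic bases of Srd5a1.

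Akr1c6, a hepatic aldo-keto reductase with 17-beta-hydroxysteroid dehydrogenase activity in mice, had 1349, 1826 and 2741 CPM in SCADD livers and 1611, 1813 and 1950 CPM in WT livers. SCADD replicate 3 was the highest and SCADD replicate 1 the lowest of all 6 livers. The log2 fold change was 0.14 (SE 0.25, adjusted p = 0.795, edgeR), and the coefficient of variation was 35.9% in SCADD and 9.53% in WT livers. Without SCADD replicate 3 the log2 fold change was -0.17.

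The Hsd17b members and Cyp17a1 act mainly on the 17-position or resemble enzymes that do. Hsd17b2, which oxidises estradiol and testosterone to their less active ketones, had 123, 120 and 106 CPM in SCADD livers and 138, 153 and 143 CPM in WT livers. The groups did not overlap and both were tight, yet the log2 fold change of -0.31 (SE 0.13) did not pass the test (adjusted p = 0.193, edgeR).

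Hsd17b6, a microsomal enzyme related to the retinol dehydrogenases that oxidises androstanediols, had 260, 744 and 523 CPM in SCADD livers and 718, 777 and 975 CPM in WT livers. SCADD replicate 2 lay inside the WT range and the other two SCADD livers below it. The log2 fold change was -0.69 (SE 0.33, adjusted p = 0.248, edgeR). Its coefficient of variation was 47.7% in SCADD and 16.4% in WT livers, and without SCADD replicate 2 the difference passed the test (-1.09, SE 0.28, adjusted p = 0.0447, edgeR).

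Hsd17b13, a hepatocyte lipid droplet protein, had 834, 902 and 650 CPM in SCADD livers and 758, 836 and 644 CPM in WT livers. The groups lay on top of each other (log2 fold change 0.09, SE 0.18, adjusted p = 0.817, edgeR). Cyp17a1, the 17-alpha-hydroxylase and lyase on the path to androgens, had 5.79, 2.69 and 4.16 CPM in SCADD livers and 5.93, 8.09 and 8.82 CPM in WT livers. The groups did not overlap, but SCADD replicate 1 and WT replicate 1 nearly touched. The log2 fold change was -0.85 (SE 0.27, adjusted p = 0.0870, edgeR). It passed the test with DESeq2 (-0.85, adjusted p = 0.0374) and, with edgeR, without SCADD replicate 1 (-1.18, SE 0.27, adjusted p = 0.0411).

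**Figure D2:**
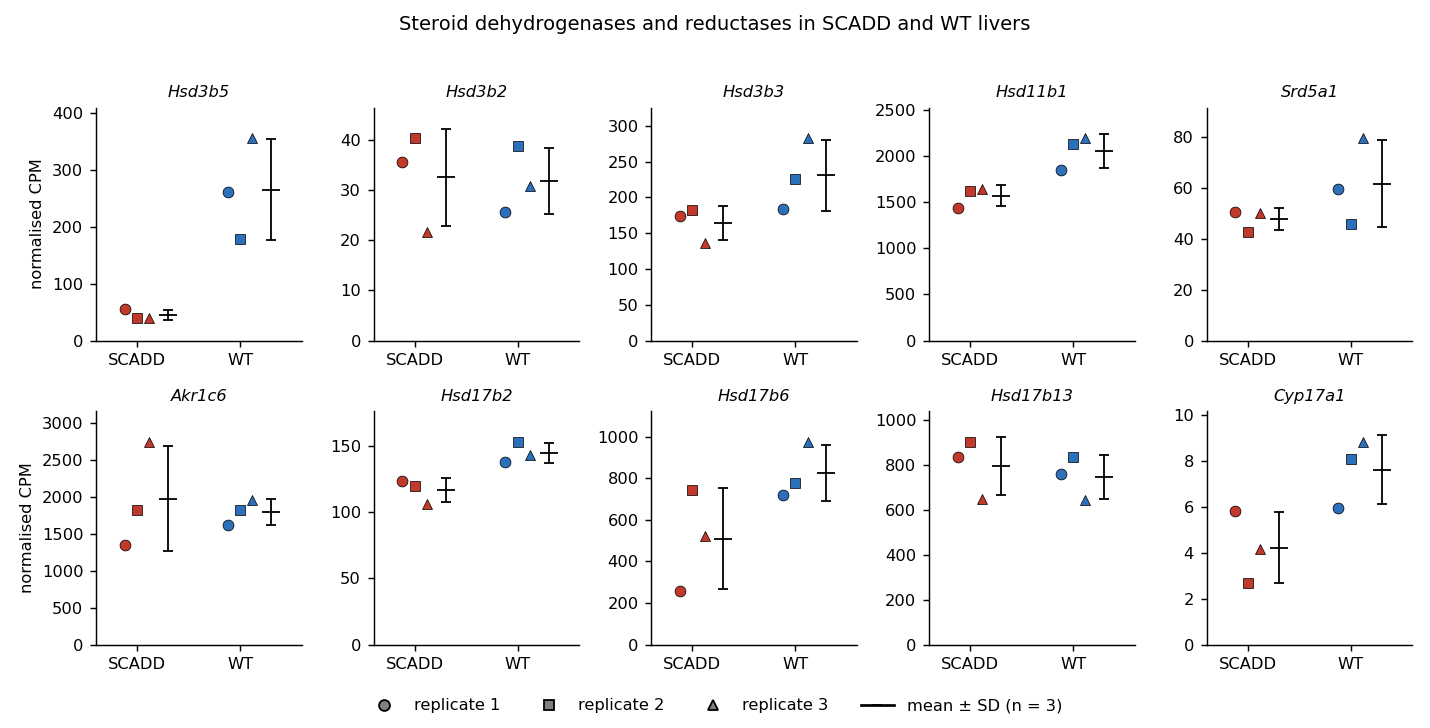
TMM-normalised CPM (vertical axes, each from 0) of the 10 members in each SCADD and WT liver, with the mean and SD of 3 animals beside the points. Hsd3b5 lies between 39.3 and 55.3 in SCADD livers and between 178 and 356 in WT livers, while the points of Hsd3b2, Akr1c6 and Hsd17b13 overlap between the groups.

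By TMM-normalised CPM, every SCADD liver was below every WT liver in 5 members, Hsd3b5, Hsd3b3, Hsd11b1, Hsd17b2 and Cyp17a1, against 13.1% of all tested genes (28% in either direction). No member had all SCADD livers above all WT livers, against 14.9% of tested genes. These shares are a description and carry no test.

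Per length, the members differed widely in level. In WT livers Hsd11b1 led with 1539 ± 59.7 TPM (SD, n = 3, as for all TPM means), followed by Akr1c6 with 1363 ± 51.2 TPM, Hsd17b6 with 691 ± 78.4 TPM and Hsd17b13 with 603 ± 92.3 TPM. Hsd3b3 with 193 ± 32.8 TPM, Hsd3b5 with 179 ± 56.0 TPM and Hsd17b2 with 116 ± 6.79 TPM formed a middle range. Srd5a1 with 41.1 ± 9.40 TPM, Hsd3b2 with 13.9 ± 2.48 TPM and Cyp17a1 with 4.38 ± 0.465 TPM were lowest. Neighbours in this order whose single WT livers overlapped were Hsd17b6 and Hsd17b13, Hsd3b3 and Hsd3b5, and Hsd3b5 and Hsd17b2.

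In SCADD livers Akr1c6 averaged 1395 ± 284 TPM, Hsd11b1 1125 ± 187 TPM, Hsd17b13 624 ± 199 TPM and Hsd17b6 410 ± 235 TPM, and the members of each of these pairs overlapped. Hsd3b3 averaged 137 ± 41.4 TPM and Hsd17b2 91.0 ± 23.2 TPM, again with overlap. Hsd3b5 averaged 29.3 ± 9.17 TPM, overlapping with Srd5a1 at 28.7 ± 5.28 TPM, and Hsd3b2 (13.4 ± 6.23 TPM) and Cyp17a1 (2.37 ± 1.14 TPM) came last. Hsd3b5 was thus level with Hsd3b3 in WT livers and with Srd5a1 in SCADD livers. The genes of the major urinary proteins took 7.37%, 8.53% and 14.8% of all TPM in SCADD libraries and 3.60%, 3.23% and 4.16% in WT libraries. TPM adds up to a fixed total, so a larger share there leaves less for all other genes together. The part of this share in the TPM of single members, or in the low values of SCADD replicate 3, was not tested.

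**Figure D3:**
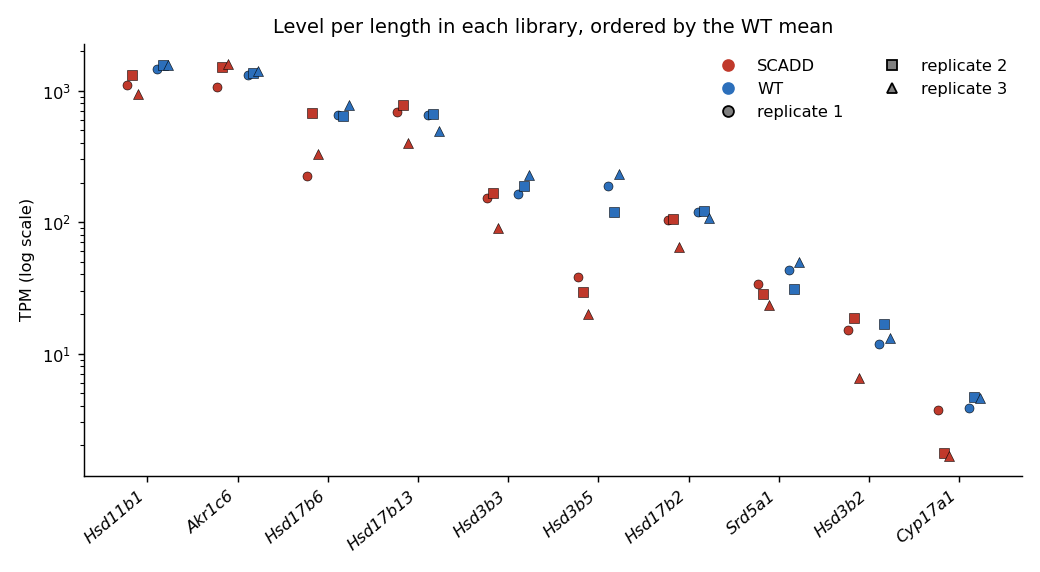
TPM of each member in each library on a log axis, ordered by the WT mean, SCADD to the left of WT for each gene. Hsd3b5 lies between 20.0 and 38.3 TPM in SCADD livers and between 119 and 230 TPM in WT livers; SCADD replicate 3 is the lowest of the SCADD libraries for 8 of the 10 members.

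Among other genes of steroid handling, taken from 8 lists without the 10 members, 51 of 76 genes were tested, 6 were called higher and 3 lower, and the median log2 fold change was 0.09. By edgeR 4.22% of all tested genes were called higher and 2.8% lower. Each count of edgeR calls below is to be read beside these shares. DESeq2 called 1290 and limma-voom 922 of 13498 tested genes. The share at an unadjusted p under 0.05 was not computed, so counts at that threshold have no such value beside them. The lists were chosen with earlier results of these data known. Of 7 tested steroid receptors, carriers and targets, none was called by edgeR or limma-voom and 1 by DESeq2, and 3 had an unadjusted p under 0.05 in edgeR. Tsc22d3, a glucocorticoid-induced gene with the smallest p of that list, had 84.8, 65.3 and 84.3 CPM in SCADD livers and 101, 196 and 105 CPM in WT livers (log2 fold change -0.78, SE 0.25, adjusted p = 0.0923, edgeR). Serpina6, the plasma carrier of corticosterone, had 44.7, 305 and 52.0 CPM in SCADD livers and 30.0, 29.1 and 24.0 CPM in WT livers. Neither gene's groups overlapped, and the level of Serpina6 in SCADD replicate 2 was far above that in the other livers (2.28, SE 0.82, adjusted p = 0.175, edgeR). Without that library the log2 fold change of Serpina6 was 0.80 and passed the test (SE 0.15, adjusted p = 0.00801, edgeR).

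Of 12 tested retinol dehydrogenase relatives, the short-chain dehydrogenase family that holds Hsd17b6, 3 were called, all higher, against 4.22% of all tested genes. Rdh16f2 had 23.7, 34.1 and 23.6 CPM in SCADD livers and 6.22, 7.17 and 9.08 CPM in WT livers (log2 fold change 1.86, SE 0.19, adjusted p = 0.000365, edgeR). Rdh16, a microsomal dehydrogenase that acts on retinol and 3-alpha-hydroxysteroids, had 334, 282 and 301 CPM in SCADD livers and 172, 155 and 141 CPM in WT livers (0.97, SE 0.15, adjusted p = 0.00357, edgeR). Both lie on chromosome 10 near Hsd17b6, at chr10:127866474-127877317 and chr10:127801152-127846565 against chr10:127990936-128007611. Their groups did not overlap, whereas Hsd17b6 had SCADD values within and below the WT range. Between them and Hsd17b6 lies Rdh7, whose log2 fold change was 0.01 (SE 0.16, adjusted p = 0.973, edgeR). Dhrs4, a carbonyl reductase, was called higher (0.51, SE 0.13, adjusted p = 0.0394, edgeR), a call that was lost with upper-quartile scaling and without SCADD replicate 1 or 2 or any of the 3 WT replicates.

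Of 9 tested genes of the Hsd17b family, Hsd17b7, which acts in cholesterol synthesis and on estrone, was the single call. It had 30.9, 26.0 and 30.2 CPM in SCADD livers and 22.5, 15.7 and 18.8 CPM in WT livers (0.61, SE 0.15, adjusted p = 0.0397, edgeR), and the call was lost with upper-quartile scaling and without SCADD replicate 1, WT replicate 2 or WT replicate 3. Hsd17b4, the peroxisomal multifunctional enzyme, had 484, 444 and 417 CPM in SCADD livers and 338, 312 and 318 CPM in WT livers, without overlap (0.47, SE 0.14, adjusted p = 0.0755, edgeR). H2-Ke6, also called Hsd17b8, shares 86.4% of its exonic bases with Gm20427 and had at most 1 unique count per library. RSEM placed it at 99.3, 104 and 83.8 TPM in SCADD livers and 99.4, 103 and 99.2 TPM in WT livers.

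Of 10 tested reductases, Srd5a3, whose product also acts in dolichol synthesis, was the single call. It had 13.7, 12.3 and 15.0 CPM in SCADD livers and 7.74, 9.14 and 8.33 CPM in WT livers (0.70, SE 0.15, adjusted p = 0.0168, edgeR). The call was lost without SCADD replicate 1 or any of the 3 WT replicates.

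Of 4 tested genes of the Hsd11b list, Slc37a4, the glucose-6-phosphate transporter that feeds NADPH production beside Hsd11b1, was called. It had 92.5, 104 and 65.8 CPM in SCADD livers and 133, 221 and 196 CPM in WT livers (-1.07, SE 0.22, adjusted p = 0.0161, edgeR), and the call was lost without WT replicate 2 or 3. Of 8 tested P450s and donors 2 were called. Cyp7b1, an oxysterol and steroid 7-alpha-hydroxylase, had 70.9, 56.9 and 111 CPM in SCADD livers and 352, 197 and 444 CPM in WT livers (-2.06, SE 0.34, adjusted p = 0.0101, edgeR). Por, the reductase that passes electrons to microsomal P450s including Cyp17a1, had 116, 120 and 109 CPM in SCADD livers and 73.8, 64.2 and 87.2 CPM in WT livers (0.61, SE 0.14, adjusted p = 0.0302, edgeR). That call was lost without SCADD replicate 1, WT replicate 1 or WT replicate 2.

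Of 7 tested conjugation genes, the sulfotransferase Sult2a7 was called, at 2.20, 1.89 and 3.16 CPM in SCADD livers and 4.27, 14.8 and 11.2 CPM in WT livers (-2.07, SE 0.45, adjusted p = 0.0349, edgeR). The call did not hold on RSEM counts or without any one SCADD replicate, WT replicate 2 or WT replicate 3. Sult1d1 did not pass the test (-0.89, SE 0.26, adjusted p = 0.0687, edgeR), but it passed without a filter, with DESeq2 and without SCADD replicate 3 or WT replicate 1, and its adjusted p ranged from 1.02e-05 to 0.228 over the alternatives.

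**Figure D4:**
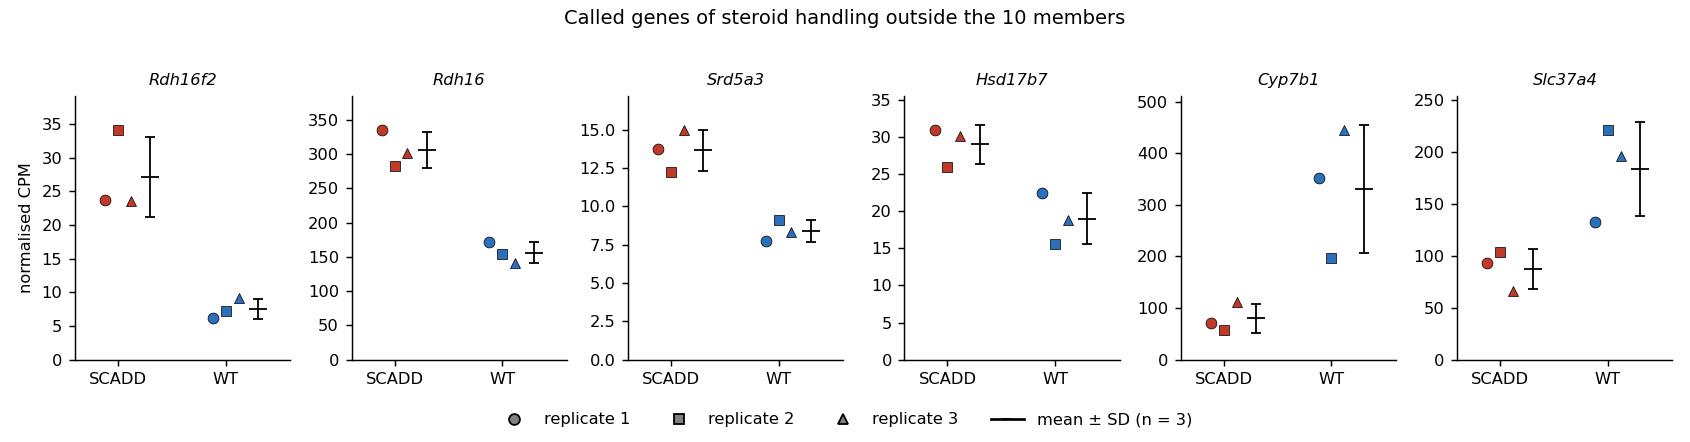
TMM-normalised CPM (vertical axes, each from 0) of 6 called genes of steroid handling outside the 10 members, in each SCADD and WT liver, with the mean and SD of 3 animals. Rdh16f2, Rdh16, Srd5a3 and Hsd17b7 lie higher, and Cyp7b1 and Slc37a4 lower, in every SCADD liver than in every WT liver.

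Hsd3b5 is one of the best known male-biased liver genes, so lists of genes with sex-biased levels in mouse liver were read beside it. Of 15 tested male-biased genes, Hsd3b5 included, 2 were called higher and 4 lower, with a median log2 fold change of -0.13. Of all tested genes 4.22% were called higher and 2.8% lower. The called genes beside Hsd3b5 and Cyp7b1 moved both ways. Selenbp2, a selenium-binding protein, had 312, 141 and 223 CPM in SCADD livers and 1129, 1319 and 2257 CPM in WT livers (-2.80, SE 0.35, adjusted p = 0.00207, edgeR). Without SCADD replicate 3 its adjusted p was 0.0578 (edgeR). Cspg5, a proteoglycan, was lower as well (-1.60, SE 0.26, adjusted p = 0.0064, edgeR). Cyp4a12a, a fatty acid hydroxylase, was higher (0.63, SE 0.15, adjusted p = 0.0301, edgeR), as was Susd4, a complement regulator (2.22, SE 0.34, adjusted p = 0.00357, edgeR). The call of Cyp4a12a was lost without SCADD replicate 1 or 2 or any of the 3 WT replicates.

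Of 13 tested female-biased genes, 1 was called higher and 1 lower (4.22% and 2.8% of all tested genes), with a median log2 fold change of 0.20. Acot3, a peroxisomal acyl-CoA thioesterase, was higher (4.17, SE 0.20, adjusted p = 2.32e-06, edgeR), and Cyp39a1, an oxysterol 7-alpha-hydroxylase, was lower (-2.83, SE 0.46, adjusted p = 0.0174, edgeR), a call that was lost without a filter and without SCADD replicate 2. Cyp17a1 is also on this list. On RSEM counts 3 listed genes were called, with the P450 gene Cyp2c40 added as lower (-1.07, SE 0.19, adjusted p = 0.00966, edgeR on rounded counts). Cyp2c40 had few unique counts, 18 over the SCADD and 70 over the WT group, against 446 and 1157 RSEM counts. None of 11 tested genes of growth hormone signalling was called by edgeR, DESeq2 or limma-voom. In edgeR 2 had an unadjusted p under 0.05, a threshold whose share over all tested genes was not computed. These were Ghr, the growth hormone receptor (0.41, SE 0.16, adjusted p = 0.159, edgeR) and Hnf4a, a hepatocyte transcription factor (0.44, SE 0.17, adjusted p = 0.147, edgeR).

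Of the 13 tested female-biased genes, 5 were higher in SCADD replicate 2 than in any other library, while 3 were lower there than in the other SCADD livers. This tally carries no test, and the same shares over all tested genes were not computed. The 2 genes given next were chosen after their values were seen. Cyp2b9, a female-biased P450, had 1.55, 68.3 and 2.92 CPM in SCADD replicates 1, 2 and 3 and 1.41, 6.38 and 0.450 CPM in WT replicates 1, 2 and 3. Its groups overlapped and it did not pass the test (3.18, SE 1.89, adjusted p = 0.414, edgeR). Hao2, an oxidase gene close to the Hsd3b cluster, had 8.20, 30.1 and 2.61 CPM in SCADD livers and 0.398, 0.831 and 0.113 CPM in WT livers (4.97, SE 1.17, adjusted p = 0.0659, edgeR). Hsd3b5 in SCADD replicate 2, at 39.7 CPM, was close to that of SCADD replicate 3, and without SCADD replicate 2 its log2 fold change was -2.49 (SE 0.31, adjusted p = 0.00306, edgeR).

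**Figure D5:**
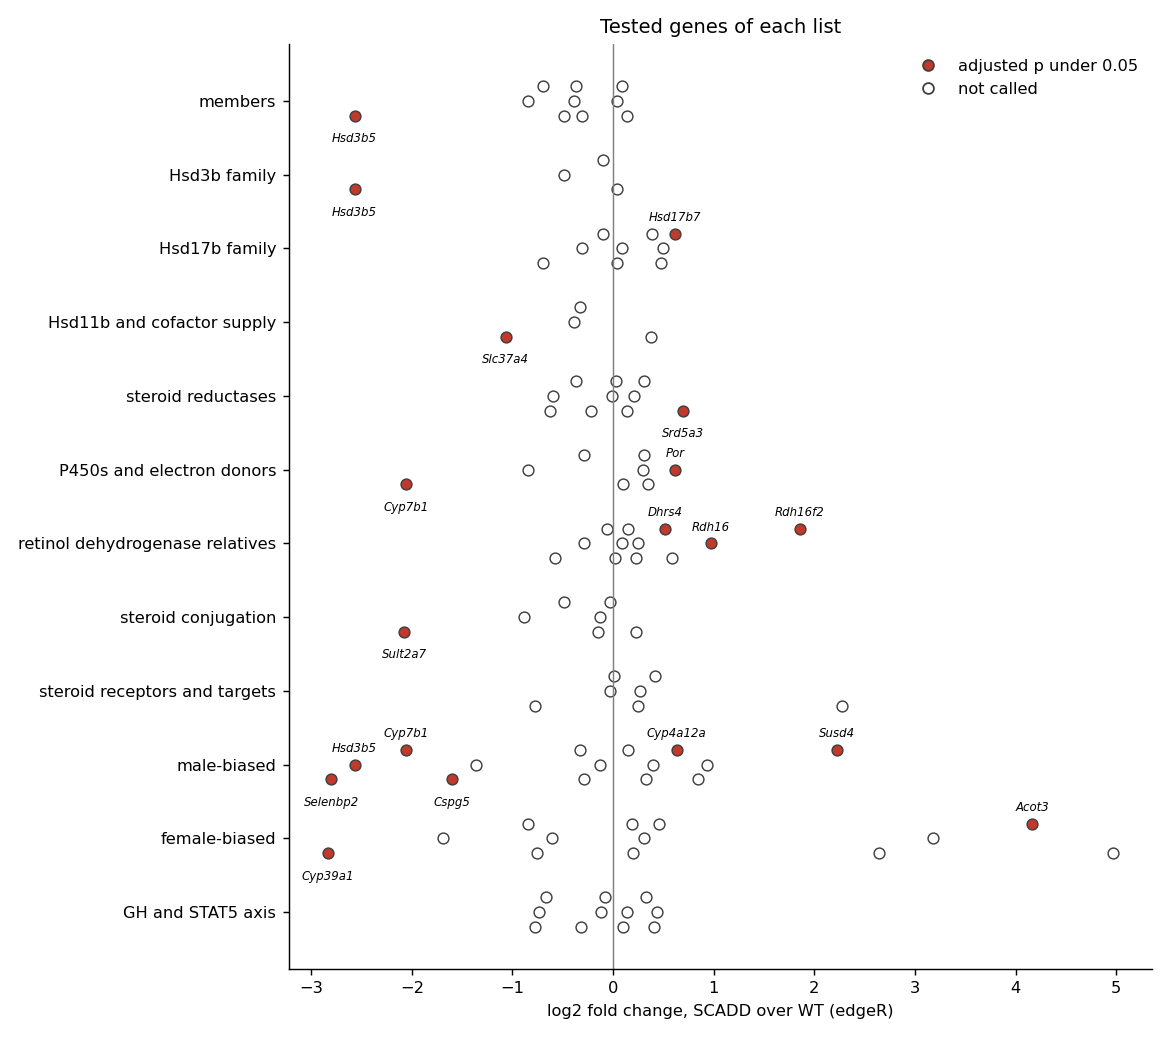
Log2 fold change, SCADD over WT, of the tested genes of the 10 members and of the 11 lists; filled points have an adjusted p under 0.05 in edgeR. Hsd3b5 at -2.57 stands apart from the other members, which lie between -0.85 and 0.14.

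As a description of patterns over the 6 libraries, the tested genes with the highest Pearson correlation of log2 CPM with Hsd3b5 were Tbc1d30, Serpina11, Gm3839, Cyhr1 and Atp5s (r between 0.993 and 0.994). Tbc1d30 had 1.14, 0.802 and 0.806 CPM in SCADD livers and 6.48, 4.72 and 6.68 CPM in WT livers. For Cyp17a1 they were Gm9826, Msl3, Ccnc, AC134458.1 and Gm5096 (r between 0.978 and 0.995). With 13498 genes and 6 libraries that fall into 2 groups, correlations of this size carry no test, and nothing is said here about shared function.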

How the data were processed

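Poly(A) RNA sequencing of 6 livers was analysed from the deposited tables, 1 pair per animal. Per the submitters' processing notes the authors used STAR 2.7.6a and RSEM 1.3.3 on GRCm38, and the annotation release and strand setting are not given in the sources used here. The authors deposited whole-number STAR read counts per gene, not normalised, and RSEM expected counts and TPM, scaled by the authors' RSEM run to a fixed total per library. Column 4 of the STAR tables was used, without its 4 summary rows. IDs were matched to GENCODE M21 (55141 of 55487), and promoters came from RefSeq GRCm38.p6.

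Genes were kept by edgeR 4.0.16 filterByExpr (minimum count 10). After TMM scaling they were tested by glmQLFit (robust) and glmQLFTest in R 4.3.3, group as the only term, with Benjamini-Hochberg adjustment over 13498 genes and a threshold of 0.05. Log2 fold changes use a prior count of 0.125, and SE is their size over the square root of F, an approximation. RSEM expected counts were rounded. The test was checked on simulated data. Alternatives were other scalings, filters and counts, DESeq2 1.42.0, limma-voom (limma 3.58.1), a replicate block and leaving out each library. Single values were tested by exact permutation.

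The members and the 11 gene lists were chosen with earlier results of these data known. Some listed genes are not reported here and were left out of the lists' counts. Genes named were all members, the Hsd3b family, of each list the called genes (or the 2 with the smallest p where fewer than 2 were called), and the 5 genes correlating best with each of the 2 members with the smallest p. Exceptions are described in the text as chosen after their values were seen. Other genes (H2-Ke6, Rdh7) are named for their overlap with or position beside listed genes, and Cyp2c40 for its call on RSEM counts. Replicates are the animals that the series' design text calls biological replicates, and counts of every replicate pair differed by more than sampling noise (chi-square per degree of freedom 37.1 to 130). Intervals and floors cover counting error only.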

Additional observations from a re-analysis of the deposited data

How the results depend on the processing

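Hsd3b5 kept its direction and its call under all 16 alternatives. Without a filter edgeR called 1702 genes (950 higher, 752 lower) against 947 (569 higher, 378 lower) with it, 3 members, 2 genes each of the Hsd17b and conjugation lists and 1 of the receptor list against 0; Hsd17b6 (-0.71, adjusted p = 0.00423) and Cyp17a1 (-0.85, adjusted p = 0.00188) then passed. DESeq2 called 1290 genes (745 higher, 545 lower). Among them were 2 members, 2 genes each of the Hsd17b and conjugation lists, 1 of the receptor list and 4 female-biased genes. Cyp17a1 was at -0.85 (adjusted p = 0.0374, DESeq2). Upper-quartile scaling split the calls into 470 higher and 482 lower, left 0 Hsd17b genes called and turned Hsd3b2 to -0.0073 and Rdh7 to -0.032. On RSEM counts 0 conjugation genes were called. The causes were not tested.

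Leaving out 1 library at a time gave 395 to 1590 called genes (240 to 909 higher, 155 to 681 lower), with the lowest without WT replicate 2 and the highest without SCADD replicate 3. Called members numbered 1 to 2, with Cyp17a1 (-1.18) added without SCADD replicate 1 and Hsd17b6 (-1.09) without SCADD replicate 2. List counts ranged over 0 to 3 (Hsd17b), 0 to 1 (Hsd11b and cofactors, reductases, receptors, growth hormone signalling), 1 to 3 (P450s, female-biased genes) and 0 to 2 (conjugation). Directions turned in 3 members: Hsd3b2 ranged from -0.15 (without SCADD replicate 2) to 0.26, with -0.04 without SCADD replicate 1 and -0.10 without WT replicate 1, Akr1c6 from -0.17 (without SCADD replicate 3) to 0.33, and Hsd17b13 from -0.014 (without SCADD replicate 2) to 0.22, with -0.0027 without WT replicate 3. Outside the members, Rdh7 ranged from -0.071 (without SCADD replicate 2) to 0.051, with -0.024 without WT replicate 1, and Cyp2b9 from -0.32 (without SCADD replicate 2) to 4.69. Hsd17b6 ranged from -1.09 to -0.39 and Cyp17a1 from -1.18 to -0.61.

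Same-numbered libraries deviated from their group means with correlations of 0.0807, 0.0186 and 0.128. Libraries with different numbers gave correlations from -0.179 to 0.0910. These small values do not settle whether the replicate numbers pair the samples. With the number as a replicate block, edgeR called 1148 genes (668 higher, 480 lower), 1 member, with Hsd3b5 at -2.53, and 2 conjugation genes. Dhrs4 was then at 0.51 (adjusted p = 0.0504).

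Limits are 3 animals per group, genotype and substrain that coincide, reads shared among Hsd3b2, Hsd3b3 and their paralogues, and shallower SCADD libraries with more unmapped reads. Cyp17a1 rests on few counts, 236 expected counts over the SCADD group and 513 over the WT group.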
